A study of Mus musculus with 6 samples.

Results

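Amino acid supply and tRNA charging are described here through 40 genes, chosen by gene name and with earlier results of the comparison below known, so every count and size given for them is a description of that choice and supports nothing beyond it. All probe sets whose platform annotation gives 1 of these names were taken, which found 87 of the 45101 probe sets and 39 of the 40 genes, while Pycr1 was not analysed here. The cells were C3H10T1/2, an established mouse mesenchymal line that can form fat, cartilage, bone and muscle cells in culture. The study asked how BMP4, a bone morphogenetic protein that cells secrete, alters gene expression as the line commits to become adipocytes. The BMP4 group was given 50 ng/ml BMP4 during growth, and the control group was handled alike with no BMP4. Total RNA was taken from both groups past confluence, and each of the 3 samples per group went onto 1 single-colour array. Nothing in the labels tells whether replicates were separate cultures, so the p-values below reflect a spread among samples that may be technical.

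When amino acids run short or unfolded proteins collect, kinases phosphorylate the translation initiation factor eIF2, and the messenger RNA of Atf4 is then translated more efficiently. The Atf4 protein pairs with C/EBP factors on composite DNA sites and raises genes that make, import and charge amino acids, including those for serine synthesis, mitochondrial folate enzymes, transporters and cytosolic tRNA synthetases. Because the control of Atf4 acts largely on translation, its protein activity need not follow its transcript level. Only RNA was measured here, and in such bulk RNA fewer cells of a type and less RNA per cell cannot be told apart.

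The core of the composite site for C/EBP and ATF factors was searched as TGATGNAA on both strands in the 250 bases before the start site of each gene (RefSeq promoter sequences, build GRCm38.p6), with any of a gene's annotated starts counted. Sequences were matched by symbol for 32 of the 40 genes, of which 9 held the core, against 3.91% of all 27025 genes with a promoter sequence. Some of the genes were grouped as Atf4 targets, so this contrast may reflect the choice of genes and supports nothing beyond it. Each stretch below holds the match in a gene whose signal is described further on, but not every such gene is shown. Each is written 5′ to 3′ along the gene's own strand, and capitals mark the core, which reads TTNCATCA where it lies on the opposite strand.
Chac1, chr2:119351009-119351096, plus strand: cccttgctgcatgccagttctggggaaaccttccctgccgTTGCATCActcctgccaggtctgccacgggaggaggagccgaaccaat
Asns, chr6:7693210-7693272, minus strand: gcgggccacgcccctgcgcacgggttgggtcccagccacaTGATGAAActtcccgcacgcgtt
Aars, chr8:111033690-111033777, plus strand: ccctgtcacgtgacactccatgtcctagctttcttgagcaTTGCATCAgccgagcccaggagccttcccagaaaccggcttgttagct
Nupr1, chr7:126625533-126625620, minus strand: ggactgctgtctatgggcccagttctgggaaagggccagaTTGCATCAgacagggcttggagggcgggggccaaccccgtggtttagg
Gars, chr6:55037931-55038000, plus strand: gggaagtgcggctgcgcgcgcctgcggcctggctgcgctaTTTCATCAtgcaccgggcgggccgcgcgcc
Tars, chr15:11399659-11399713, minus strand: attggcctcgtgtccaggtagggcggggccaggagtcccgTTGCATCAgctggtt
Slc7a11, chr3:50443614-50443719, minus strand: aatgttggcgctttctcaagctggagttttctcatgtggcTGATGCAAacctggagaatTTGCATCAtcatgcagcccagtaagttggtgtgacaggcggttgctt
The core began 193 bases before the start in Chac1, 23 in Asns, 112 in Aars, 110 in Nupr1, 30 in Gars and 15 in Tars, and Slc7a11 held 2 matches that began 66 and 47 bases before it. Vldlr and Pycr1 also held a match, and their stretches are not shown. A match describes these letters and is not evidence of binding.

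With BMP4, 16 of the 38 genes above the low-signal filter were higher and 2 were lower, by limma on log2(signal + 16) at an adjusted p of 0.05 over all 27022 probe sets tested. Each gene is represented by its brightest probe set. Over all 12966 genes tested in this way, 5.03% were higher and 5.66% were lower. The median log2 difference, BMP4 minus control throughout, was 0.30 over the 38 genes and 0.03 over all genes tested. The signals of 23 of the 38 genes on all BMP4 arrays lay above those on all control arrays, and those of 2 lay wholly below, against 16.3% and 14.5% of all genes. Changes of the 16 higher genes ran from 0.29 to 1.05 on the log2 scale. The count of higher genes depended on the processing: with arrays centred on their medians 9 were higher, and without an intensity trend in the variance 9 were higher and 1 lower. Both called directions include a gene with the composite core in its promoter: of the members with a sequence it was found in 3 of 12 that were higher, 1 of 2 that were lower, 3 of 16 that were not called and 2 of 2 that were not tested.

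**Figure D1:**
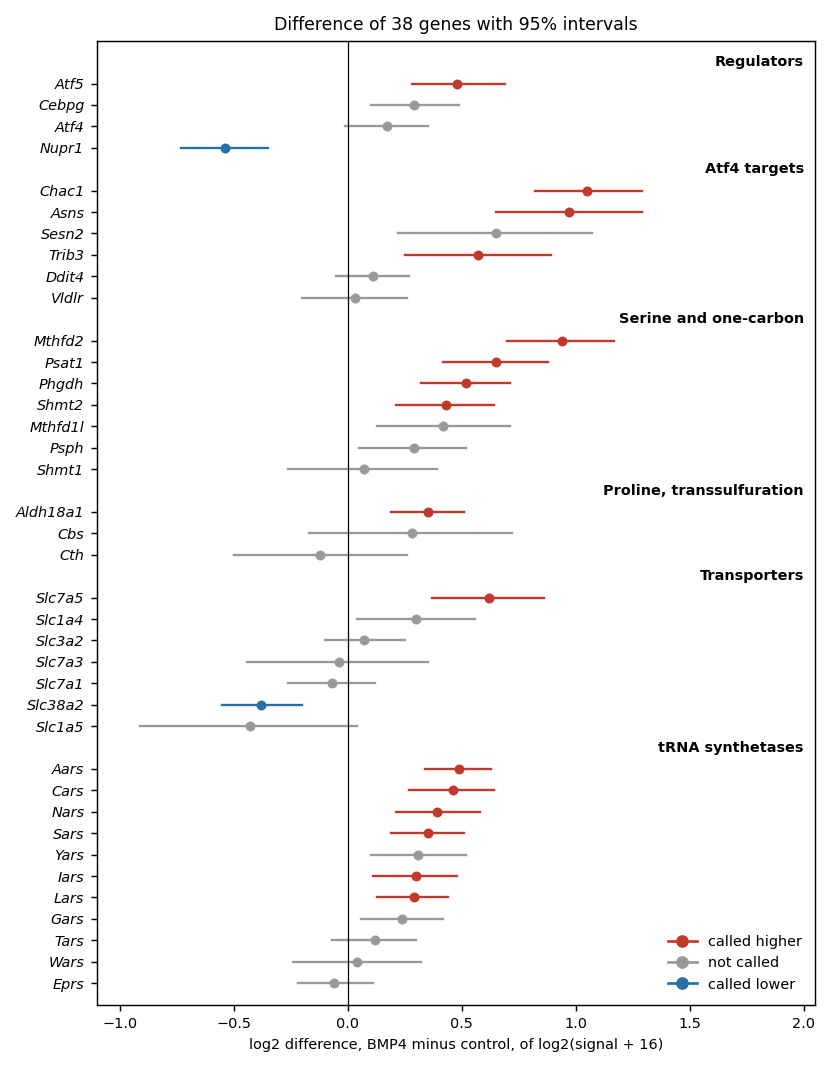
Log2 difference (BMP4 minus control, of log2(signal + 16)) of the 38 genes, by step, with 95% intervals from limma that are not adjusted for the number of tests. Chac1, Asns and Mthfd2 lie farthest to the right, and Nupr1 and Slc38a2 are the 2 genes called lower.

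The 2% trimmed mean was 150 on all 6 arrays, but every BMP4 array had a higher median signal than every control array, at 37.6 to 42.6 with BMP4 and 35.2 to 37.3 without. More probe sets of each BMP4 array, 56% to 59% against 54.4% to 55.7% with no BMP4, also lay above 29.1, the highest signal of the bacterial control probe sets without added RNA. Centring on the medians lowered the median difference of all probe sets by 0.095 on the log2 scale, and 7 of the 16 higher calls were lost. Of the 8 mesenchymal markers examined, 8 were above that level on all arrays, with summed signals of 43151 to 51095 with BMP4 and 38105 to 47752 without. The sum is carried by its brightest genes. Twist1, a dimmer marker, was lower with BMP4 (-0.48, adjusted p = 0.044). Prrx1 was lower on 1 further probe set (-0.49, adjusted p = 0.0014) but not called on its brightest (-0.18). Col3a1, a bright marker, was likewise lower on a further probe set (-0.45, adjusted p = 0.0352) but not called on its brightest (-0.01). Of 4 blood cell markers 3 were above it on no array, while Cd68 was above it on all 6, and summed signals were 62.1 to 83.9 with BMP4 and 59.4 to 81.2 without. Summed endothelial markers were lower on every BMP4 array, at 118 to 190.5 with BMP4 and 204 to 214 without. Tek was called lower (-0.69, adjusted p = 0.0167), and Pecam1 was above background on no array. Summed epithelial markers were 326 to 588 with BMP4 and 438 to 548 without. Most of that sum came from 1 Epcam probe set, with means of 332 with BMP4 and 381 without. The other Epcam probe set and Cdh1 were above background on no array, while the brightest Krt8 probe set was above it on all 6. Further Krt8 probe sets were above it on 1 array (means of 4.5 with BMP4 and 23.5 without) and on no array (11.6 and 7.83). The part of other cells in the results was not tested.

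Among the regulators, the transcript of Atf4 itself was not called, its relative Atf5 rose and the stress protein gene Nupr1 fell. Atf4 had signals of 1464, 1549 and 1457 on the BMP4 arrays, against 1180.1, 1379 and 1422 on the control arrays. The BMP4 arrays were all higher, but by little, and the log2 difference was 0.17 (95% interval -0.01 to 0.35, adjusted p = 0.244). A second Atf4 probe set gave 0.07 (adjusted p = 0.649), and the dimmest was below background on all arrays.

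Atf5, a factor that is also controlled through translation under stress, had signals of 680.2, 558 and 702 with BMP4 and 490.4, 424 and 454 without. The groups did not overlap, and the log2 change was 0.48 ± 0.09 (SE, adjusted p = 0.00816). Without an intensity trend in the variance Atf5 was not called (adjusted p = 0.0675). Cebpg, a C/EBP partner of Atf4, had signals of 314.5, 289 and 361 with BMP4 and 257, 256 and 262 without. All BMP4 arrays were higher, and the log2 difference of 0.29 missed the threshold (adjusted p = 0.0697), which it passed without BMP4 replicate 2 (adjusted p = 0.0457). A dimmer Cebpg probe set rose by 0.67 (adjusted p = 0.00424), so the probe sets of this gene disagree on the call.

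Nupr1, a small nuclear protein induced by many stresses, moved the opposite way, and its promoter holds the composite core shown above. Its signals were 217, 216 and 185 with BMP4, against 318, 297 and 304.5 without. The groups were well separated, and the log2 change was -0.54 ± 0.09 (SE, adjusted p = 0.00258). The other Nupr1 probe set gave -0.75 (adjusted p = 0.000795).

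**Figure D2:**
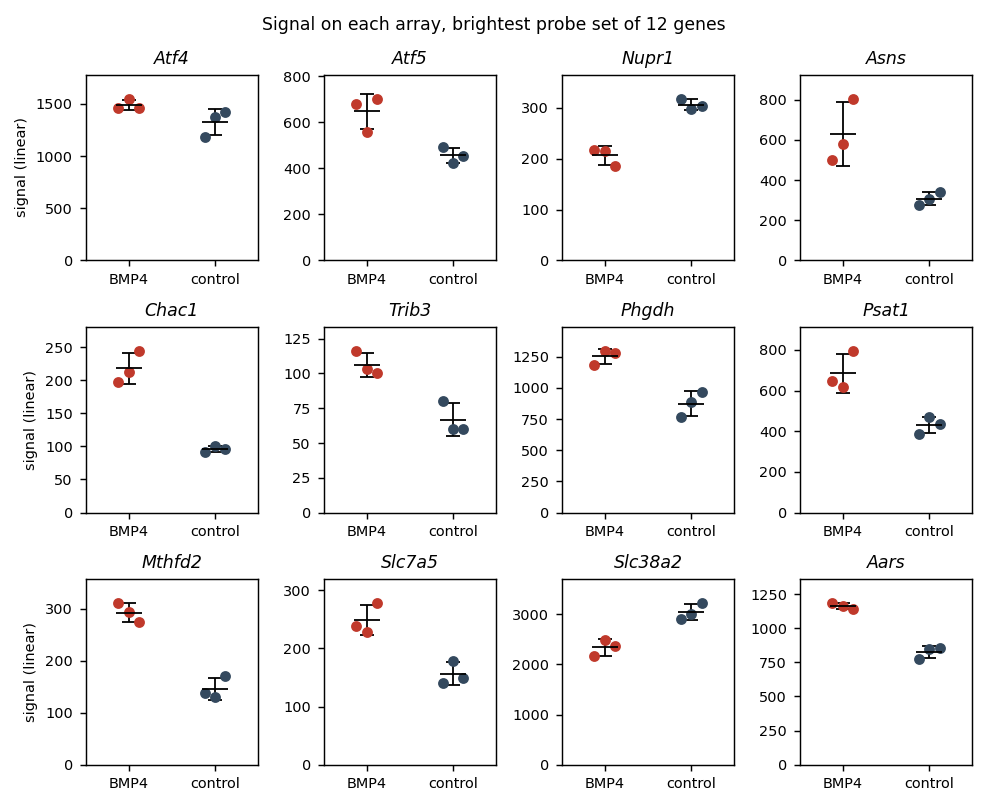
Linear signal on each array for 12 genes (brightest probe set), with points for the 3 BMP4 arrays (left) and the 3 control arrays (right) and bars for the mean and SD. Nupr1 and Slc38a2 are lower with BMP4, the log2 difference of Atf4 (0.17) is smaller than those of Asns (0.97), Chac1 (1.05) and Mthfd2 (0.94), and the groups do not overlap in any of the 12 panels.

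Of 6 genes grouped as Atf4 targets 3 rose, 0 fell and 3 were not called, with a median log2 difference of 0.61. Over all genes tested 5.03% were higher and 5.66% lower. In the steps where limma called 0 genes lower (these targets, the serine and folate enzymes, proline synthesis with transsulfuration, and the synthetases), an unadjusted p under 0.05 also gave 0 lower. Chac1, an enzyme that breaks down glutathione, had signals of 198, 212 and 244 with BMP4 and 91.8, 100.9 and 96.8 without. Every BMP4 array was above double the mean control signal, the log2 change being 1.05 ± 0.11 (SE, adjusted p = 0.000129). Asns, which makes asparagine from aspartate and glutamine, had signals of 499, 579.5 and 805 with BMP4 and 277, 306.5 and 339.5 without. BMP4 replicate 3 was the highest by a wide margin, and the change was 0.97 ± 0.15 (adjusted p = 0.00164), with 0.81 (adjusted p = 0.00156) on the second probe set.

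Trib3, a pseudokinase that binds AKT and restrains Atf4 in a feedback loop, had signals of 116, 103 and 100 with BMP4 and 80.5, 60.1 and 60.1 without. The groups did not overlap, and the change was 0.57 ± 0.14 (SE, adjusted p = 0.0318), while a dimmer probe set gave 1.10 (adjusted p = 0.002). The first of these calls was lost without BMP4 replicate 1 (adjusted p = 0.0936), BMP4 replicate 2 (0.0726), BMP4 replicate 3 (0.0605), control replicate 2 (0.112) or control replicate 3 (0.0999), with no low-signal filter (0.0664) and with arrays centred on their medians (0.0503).

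Sesn2, a leucine sensor that restrains the growth kinase complex mTORC1, had signals of 232, 268.5 and 312 with BMP4 and 167, 232 and 116 without. Control replicate 2 lay within the BMP4 range, and the log2 difference of 0.65 was not called (adjusted p = 0.0631), nor was that of 0.43 on the other probe set (adjusted p = 0.0544). The first rested on single control arrays: it was 0.87 (adjusted p = 0.00967) without control replicate 2 and 0.42 (adjusted p = 0.153) without control replicate 3. It also passed the threshold with a filter at the 60th percentile (adjusted p = 0.0455). Ddit4, another inhibitor of mTORC1, gave 0.11 (95% interval -0.05 to 0.27), and Vldlr, a lipoprotein receptor, gave 0.03 (-0.20 to 0.26). Signals of both overlapped between the groups.

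Serine is made from a glycolytic intermediate by Phgdh, Psat1 and Psph in that order. Serine then gives its carbon to folate through Shmt1 in the cytosol or Shmt2 in mitochondria, and Mthfd2 and Mthfd1l carry that carbon on towards formate in mitochondria. Of these 7 genes 4 rose and 0 fell, 6 had all BMP4 arrays above all control arrays, and the median log2 difference was 0.43. Over all genes tested 5.03% were higher, 5.66% were lower and 16.3% had all BMP4 arrays above. Mthfd2 had signals of 311, 293 and 274.5 with BMP4 and 137, 130.3 and 170.1 without. The BMP4 signals were about double, with a log2 change of 0.94 ± 0.11 (SE, adjusted p = 0.000261) and of 0.93 (adjusted p = 8.8e-05) on the other probe set.

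Phgdh, the entry enzyme, had signals of 1183, 1296 and 1279.8 with BMP4 and 768, 887 and 968 without. The groups were apart, with a change of 0.52 ± 0.09 (SE, adjusted p = 0.00345), and the 3 further probe sets rose by 0.62, 0.63 and 0.65. Psat1 had signals of 647, 615.5 and 795 with BMP4 and 388, 468 and 434 without. It rose by 0.65 ± 0.10 (adjusted p = 0.00226), and by 0.66 on the other probe set (adjusted p = 0.00244). Psph, the last enzyme of the route, was higher on all BMP4 arrays but not called (0.29, 95% interval 0.05 to 0.52, adjusted p = 0.132).

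The mitochondrial Shmt2 had signals of 538, 603 and 722 with BMP4 and 454, 475 and 436 without. It rose by 0.43 ± 0.10 (SE, adjusted p = 0.0206). Further Shmt2 probe sets gave 0.41 (adjusted p = 0.0387, called), 0.32 (0.179) and 0.18 (0.658), so the probe sets disagree on the call. The brightest was not called once BMP4 replicate 2 (adjusted p = 0.051) or either of control replicates 1 (0.0674) and 3 (0.0726) was left out. It was also not called with no filter (0.0561), with median centring (0.121) and without the trend (0.105). The cytosolic Shmt1 gave 0.07 (95% interval -0.26 to 0.39, adjusted p = 0.833) and overlapped between the groups; whether the 2 enzymes differ in response was not tested. Mthfd1l had signals of 95.4, 116 and 124 with BMP4 and 80.9, 76.7 and 79.4 without. All BMP4 arrays were higher, and the difference of 0.42 (adjusted p = 0.074) was called without BMP4 replicate 1 (0.51, adjusted p = 0.0406) and with array weights (adjusted p = 0.0437).

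Proline synthesis and transsulfuration were represented by 3 tested genes. Aldh18a1, which turns glutamate into the precursor of proline and ornithine, had signals of 605, 614 and 686 with BMP4 and 495, 515 and 471 without. It rose by 0.35 ± 0.07 (SE, adjusted p = 0.0124), and 2 of its 4 further probe sets were also called higher, at 0.56 and 0.43. The first call was lost without control replicate 3 (adjusted p = 0.0515), with median centring (0.123) and without the trend (0.0826). Cbs, which joins homocysteine to serine, was dim, with signals of 65.5, 45.9 and 60.5 with BMP4 and 33.3, 61.3 and 41 without. The groups overlapped (0.28, 95% interval -0.17 to 0.72), as they did for Cth, which releases cysteine from cystathionine (-0.12, 95% interval -0.50 to 0.26).

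The transporters did not move as a group: of 7 tested, 1 rose, 1 fell, and the median log2 difference was -0.04. Over all genes tested 5.03% were higher and 5.66% lower. Slc7a5, the catalytic chain of the large neutral amino acid carrier that brings in leucine, had signals of 239, 228 and 277 with BMP4 and 141, 178 and 149.7 without. Its groups were apart, with a change of 0.62 ± 0.11 (SE, adjusted p = 0.00502). Its partner chain Slc3a2 had signals of 2394, 2515 and 2322 with BMP4 and 2075, 2396.5 and 2408 without. The partner's groups overlapped, with a log2 difference of 0.07 (95% interval -0.10 to 0.25).

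Slc38a2, the sodium-coupled carrier of small neutral amino acids, had signals of 2158, 2482 and 2364 with BMP4, against 2893.5, 3002 and 3216 without. It fell by 0.38 on the log2 scale (SE 0.08, adjusted p = 0.0124), while 2 dimmer probe sets gave 0.03 and 0.15 and were not called, so the fall rests on 1 probe set. It was not called once BMP4 replicate 1 (adjusted p = 0.0557) or control replicate 3 (0.0548) was left out, and without the trend (0.0745). Slc1a5, the main glutamine carrier of many growing cells, had signals of 84.1, 37.7 and 74.4 with BMP4 and 94.9, 93.1 and 82.9 without. BMP4 replicate 2 was far below the others, the groups overlapped, and the difference of -0.43 was not called (adjusted p = 0.264). Without that array it was -0.16 (adjusted p = 0.594).

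Slc1a4, a carrier of alanine, serine and cysteine, was higher on all BMP4 arrays but not called (0.30, adjusted p = 0.164). The carriers of arginine and lysine Slc7a1 and Slc7a3 gave -0.07 (95% interval -0.26 to 0.12) and -0.04 (-0.44 to 0.35), and a further Slc7a1 probe set gave 0.28 (adjusted p = 0.151). Slc7a11, which exchanges cystine for glutamate, had 2 probe sets, both under the filter and below 29.1 on every array. Signals of its first were 5.6, 2.6 and 10.6 with BMP4 and 17.2, 12.7 and 6.7 without. No level could be compared for this gene, whose promoter holds 2 matches to the core.

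**Figure D3:**
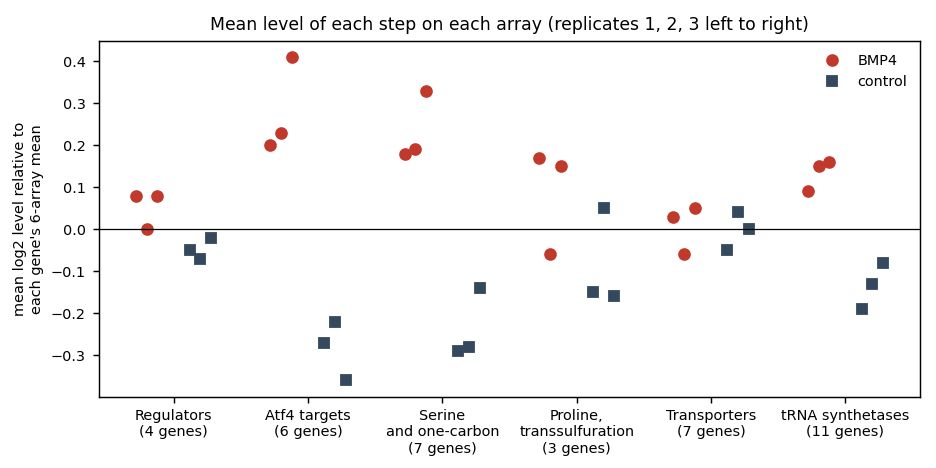
Mean log2 level of each step on each array, relative to each gene's mean over the 6 arrays, for BMP4 (circles) and control (squares). The regulators, the targets, the serine and folate enzymes and the synthetases are higher on all BMP4 arrays, whereas the transporters overlap between -0.06 and 0.05 with BMP4 and between -0.05 and 0.04 without. Proline synthesis with transsulfuration also overlaps (0.17, -0.06 and 0.15 with BMP4, and -0.15, 0.05 and -0.16 without). The regulators are apart by little, at 0 on BMP4 replicate 2 against -0.02 on control replicate 3, and include a called rise (Atf5) and a called fall (Nupr1).

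tRNA synthetases join each amino acid to its tRNA. Of 11 cytosolic synthetases 6 rose, 0 fell and 5 were not called, against 5.03% higher and 5.66% lower over all genes tested. All 6 rose by less than a doubling, and the median log2 difference was 0.30. Aars, for alanine, had signals of 1183, 1166 and 1143 with BMP4 and 776, 845 and 857 without. The groups were clearly apart, with a change of 0.49 ± 0.07 (SE, adjusted p = 0.000795) and of 0.36 on a second probe set, also called. Cars, for cysteine, had signals of 280.1, 270 and 290.3 with BMP4 and 211, 188 and 201 without. It rose by 0.46 ± 0.08 (adjusted p = 0.00526).

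Nars, for asparagine, had signals of 1513, 1611.5 and 1855 with BMP4 and 1201, 1324 and 1243 without. It rose by 0.39 ± 0.08 (SE, adjusted p = 0.0133), but was not called with median centring (0.119) or without the trend (0.0876). Sars, for serine, had signals of 1294, 1339 and 1317 with BMP4 and 979.7, 988 and 1127 without. It rose by 0.35 ± 0.07 (adjusted p = 0.0112), and was not called without control replicate 2 (0.0592), with median centring (0.107) or without the trend (0.083). Further probe sets of Nars (0.22) and Sars (0.21) had the same sign and were not called.

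Iars, for isoleucine, had signals of 577, 538 and 642 with BMP4 and 442, 476 and 502 without, and rose by 0.30 ± 0.08 (SE, adjusted p = 0.0482). Lars, for leucine, had signals of 547, 525 and 537 with BMP4 and 451, 450.5 and 411 without, and rose by 0.29 ± 0.07 (adjusted p = 0.0254). A second Iars probe set gave 0.42 (adjusted p = 0.0281) and was also called higher. On the brightest probe sets the groups did not overlap for either gene, but both calls were close to the threshold. That of Iars was lost without BMP4 replicate 1 (adjusted p = 0.0861), BMP4 replicate 3 (0.142), control replicate 1 (0.158), control replicate 2 (0.121) or control replicate 3 (0.0598). That of Lars was lost without BMP4 replicate 1 (0.0639), BMP4 replicate 2 (0.0576), BMP4 replicate 3 (0.0634), control replicate 1 (0.0507), control replicate 2 (0.0614) or control replicate 3 (0.0921). With median centring the adjusted p was 0.26 for Iars and 0.182 for Lars.

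Yars, for tyrosine, had signals of 261, 312 and 286 with BMP4 and 209, 228 and 246 without. All BMP4 arrays were higher, and the difference of 0.31 (adjusted p = 0.0678) was called without BMP4 replicate 1 (0.37, adjusted p = 0.0443) and with array weights (0.0399). Gars, for glycine, was also higher on all BMP4 arrays (0.24, adjusted p = 0.0938), and was called with quantile normalization (0.0431). Tars for threonine (0.12, 95% interval -0.07 to 0.30), Wars for tryptophan (0.04, -0.24 to 0.32) and Eprs, which charges both glutamate and proline (-0.06, -0.22 to 0.11), overlapped between the groups. Tars and Gars, which were not called, hold the composite core in the windows printed above, as does Aars.

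**Figure D4:**
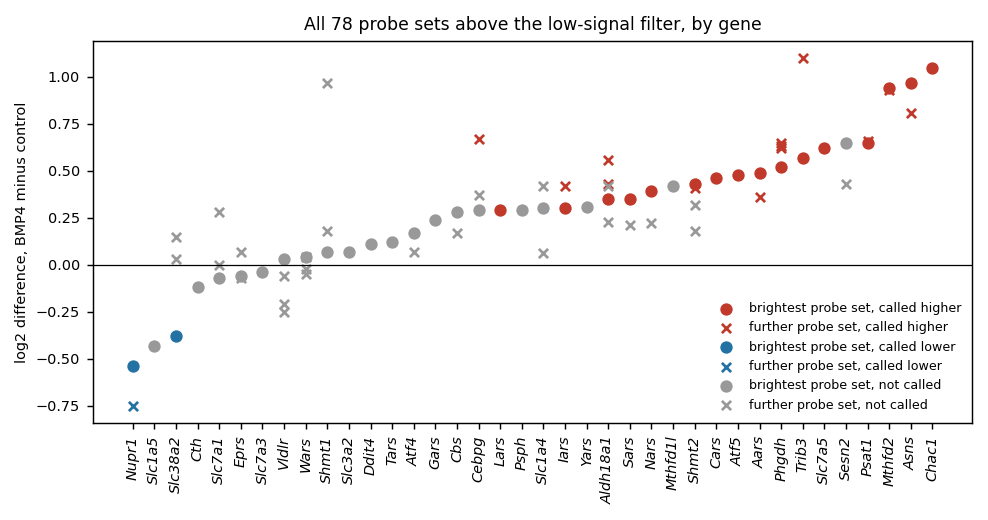
Log2 difference of all 78 probe sets above the low-signal filter, by gene, with circles for the brightest probe set of a gene and crosses for further ones. Further probe sets of Phgdh, Psat1 and Mthfd2 lie close to the brightest one, whereas those of Slc38a2 (0.03 and 0.15, against -0.38) do not.

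Called genes had 21 further probe sets above the filter, of which 19 had the same sign as the brightest one, 13 were called in the same direction and 0 were called in the opposite direction. Over all probe sets tested 9.12% were called, 4.2% higher and 4.91% lower. The 2 with another sign were those of Slc38a2. These further probe sets read the same genes on the same samples, and were taken because the gene was called. The share over all probe sets is therefore not a matching reference, and the agreement is not independent support. Within the BMP4 group the 16 higher genes were not at equal levels on the 3 arrays. The highest BMP4 signal was on replicate 3 for 10 of them, on replicate 1 for 4 and on replicate 2 for 2. The lowest control signal was on replicate 1 for 9, on replicate 2 for 4 and on replicate 3 for 3. The mean log2 level of the Atf4 targets relative to their 6-array mean was 0.20, 0.23 and 0.41 with BMP4, against -0.27, -0.22 and -0.36 without.

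Other genes of the same pathways, listed by function but with earlier results of these data known, were called in both directions. Of 126 listed genes 105 were tested, of which 6 were higher and 6 were lower, with a median log2 difference of 0.01. These counts are near the background over all genes tested, 5.03% higher and 5.66% lower. With arrays centred on their medians 3 were higher and 9 lower. Among 11 other cytosolic synthetase and scaffold genes 1 was higher, Farsb, a chain of the phenylalanine synthetase. Farsb had signals of 368, 382 and 505 with BMP4 and 300.3, 298 and 299.7 without (0.45, adjusted p = 0.0253), and was not called without control replicate 1 (0.0777), control replicate 2 (0.0767) or control replicate 3 (0.0684), or with median centring (0.116). Of 15 mitochondrial synthetases 0 were called by limma in either direction, with a median of 0.00, and at an unadjusted p under 0.05 there were 0 higher and 1 lower. Of 16 other transporters limma also called 0, with a median of 0.10 and 3 higher and 1 lower at an unadjusted p under 0.05. Over the 41 probe sets of these transporters above the filter, 2 were called higher and 1 lower, against 4.2% and 4.91% of all probe sets.

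Among 12 other folate and glycine genes 1 was higher, the mitochondrial formyl-folate dehydrogenase Aldh1l2, which acts on the same mitochondrial folate pool as Mthfd2. It had signals of 407, 342.5 and 425.5 with BMP4 and 208, 222 and 215.5 without, a change of 0.81 ± 0.09 (SE, adjusted p = 0.000234). Among 10 genes of methionine, cysteine and glutathione limma called 0 higher (1 at an unadjusted p under 0.05) and 2 lower. For this list and the one before, the shares over all genes tested were 5.03% higher and 5.66% lower. Gclc, the catalytic chain of the rate-limiting enzyme of glutathione synthesis, had signals of 199, 222 and 229 with BMP4, against 446, 569 and 542 without, a change of -1.20 ± 0.10 (adjusted p = 2.87e-05). A second Gclc probe set gave -0.85 (adjusted p = 0.000139). Cdo1, which oxidises cysteine, gave -0.27 (adjusted p = 0.0213) and was not called without BMP4 replicate 2 (0.0561), BMP4 replicate 3 (0.0685), control replicate 2 (0.0666) or control replicate 3 (0.0785).

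Among 18 genes of aspartate, glutamine, arginine and branched-chain amino acids 3 were higher and 2 were lower. The shares over all genes tested were 5.03% higher and 5.66% lower. Glul, which makes glutamine, had signals of 399, 441 and 421.5 with BMP4, against 745, 683 and 683 without, a change of -0.72 ± 0.07 (SE, adjusted p = 9.17e-05). Bcat1, the cytosolic branched-chain transaminase, averaged 90.9 ± 15.8 with BMP4 and 46.6 ± 11.1 without (SD, n = 3 each, limma adjusted p = 0.0188), a log2 change of 0.78. It missed the threshold without BMP4 replicate 3 (0.075) and without either of control replicates 1 (0.0729) and 3 (0.0639). The mitochondrial arginase Arg2 had signals of 44.1, 49.3 and 37.7 with BMP4 and 14.1, 19.5 and 18.7 without. All of its control signals were below 29.1 and it passed the low-signal filter only through the BMP4 group, so its call is not independent of the filter. Set against 29.1, its geometric mean with BMP4 was at least 1.49-fold higher. The difference between the groups had a limma adjusted p of 0.0178, and was not called without BMP4 replicate 2 (0.0663) or control replicate 1 (0.0687). The remaining 2, named after their values were seen, were the cytosolic aspartate transaminase Got1 (0.26, adjusted p = 0.0496) and the ornithine transaminase Oat (-0.31, adjusted p = 0.0253). Got1 fell short of the threshold without each of the arrays in turn (adjusted p 0.0605 to 0.159), and Oat was not called without BMP4 replicate 2 (0.0663), BMP4 replicate 3 (0.0935), control replicate 2 (0.096) or control replicate 3 (0.0908).

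Among 23 kinases, initiation factor subunits and partners of the stress response 1 was higher and 2 were lower, with a median of -0.04. The shares over all genes tested were 5.03% higher and 5.66% lower. The eIF2 kinase genes Eif2ak1, Eif2ak2, Eif2ak3 and Eif2ak4 gave -0.06, -0.04, -0.02 and 0.39, the last with an adjusted p of 0.184. Ddit3, the stress factor CHOP, gave 0.19 (adjusted p = 0.213) on its brightest probe set. A further Ddit3 probe set had signals of 41.4, 58.2 and 54.1 with BMP4 and 25.3, 26.5 and 7.4 without, all control signals being below 29.1, and passed the filter only through the BMP4 group. Its call is therefore not independent of the filter. Against 29.1 its geometric mean with BMP4 was at least 1.74-fold higher. The limma adjusted p of 0.0378 belongs to the difference between the groups and not to this bound. Eif2b2, a subunit of the exchange factor for eIF2, was higher (0.27, adjusted p = 0.0299), and was called without control replicate 3 but with no other array left out (adjusted p 0.0514 to 0.126). Sesn1, a relative of Sesn2, was lower, at 494 ± 25.1 with BMP4 and 624 ± 15 without (SD, n = 3 each), a log2 change of -0.33 (limma adjusted p = 0.0113). Further Sesn1 probe sets gave -0.67 (adjusted p = 0.00345), -0.47 (0.0119) and -0.13 (0.78, not called). Ppp1r15b, which guides the phosphatase that reverses eIF2 phosphorylation, gave -0.27 (adjusted p = 0.0338) and was not called without BMP4 replicate 2 (0.105), BMP4 replicate 3 (0.0952), control replicate 1 (0.0976) or control replicate 3 (0.113). A dimmer Ppp1r15b probe set gave -0.85 (adjusted p = 0.0281). Over the 48 probe sets of this list above the filter, 3 were called higher and 6 lower, against 4.2% and 4.91% of all probe sets.

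**Figure D5:**
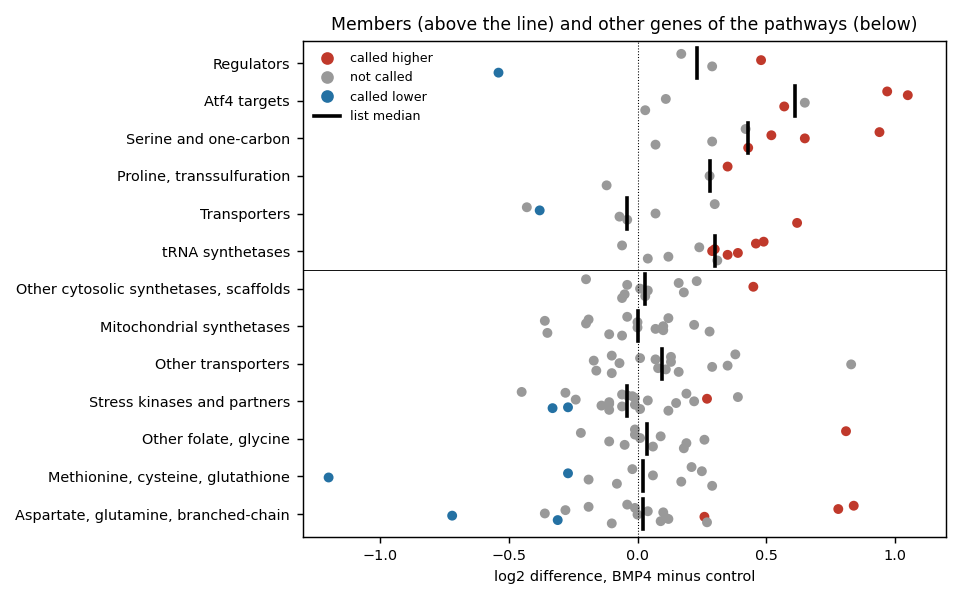
Log2 difference of each tested gene (brightest probe set) in the member steps, above the line, and in the other lists of the same pathways, below it; thick bars are list medians. The medians of the other lists lie between -0.04 and 0.10, those of the member steps between -0.04 and 0.61, and Gclc is the leftmost point.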

How the data were processed

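Groups and replicate numbers came from the sample titles. The deposited values are linear signal intensities that the authors made with GCOS 1.3, per the submitters' processing notes; how they scaled and background-corrected is not given in the sources used here, nor are detection calls. The equal trimmed means are what scaling to a common target gives, and the signals were used without further scaling. The platform annotation gave 1 symbol to 34958 of 45101 probe sets and several to 932, which name no gene here, and left 9211 unnamed. After leaving out 64 control probe sets, 16 was added and log2 values were taken, which understates fold changes at low signal. Probe sets with a mean above the 40th percentile (a signal of 23.5) entered limma 3.58.1 under R 4.3.3. Its moderated two-sided test let the variance follow an intensity trend (lmFit, eBayes), and p-values of all 27022 were adjusted by Benjamini-Hochberg. The members and all gene lists were chosen with earlier results of these data known. Genes given with values per array are Atf4, every called member and, per step, the uncalled member with the largest difference; of each other list, up to 3 called genes are named. Slc3a2, Slc7a11, the eIF2 kinase genes, Ddit3, Got1 and Oat fall outside this rule and were added after their values were seen. Where all signals of 1 group were below 29.1, a called difference is given as a lower bound, the other group's geometric mean over 29.1. Several listed genes, among them Pycr1, were not analysed here. The number of arrays limits the precision.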

Additional observations from a re-analysis of the deposited data

How the results depend on the processing

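The comparison was repeated under 17 other fits and once with the second brightest probe set of each gene. Under the 17 fits no called member and no called gene of the other lists changed sign; with the second probe set Slc38a2 did (0.03, against -0.38). Of the 18 called members 9 kept their call under all 17 fits (Nupr1, Asns, Chac1, Phgdh, Psat1, Mthfd2, Slc7a5, Aars and Cars) and 9 lost it under at least 1, while 5 members that were not called passed under at least 1. Of 12 called genes in the other lists 3 kept their call under all 17, Aldh1l2, Gclc and Glul. Median centring shifted the median difference of all probe sets by -0.095 and left 9 members higher, against 16 as deposited; in the other lists it left 3 higher, so that 25% of their calls were higher, against 50%. Without the intensity trend 9 members were higher and 1 lower, with 3 higher and 2 lower in the other lists. With no filter 2 genes of the other lists were higher. With the second probe set 1 member was lower, Slc38a2 being the one not called. Leaving out 1 array gave 11 to 15 higher and 1 to 2 lower members, and 1 to 5 higher and 3 to 6 lower genes in the other lists, the lowest of these, 1 higher, without control replicate 1. Over all probe sets 1136 were higher and 1328 lower, against 632 and 1890 with median centring (25.1% higher, in place of 46.1%) and 659 and 763 without the trend. With the replicate number as a block 15 members were higher and 2 lower, Lars (adjusted p = 0.0511) being lost, and 4 genes of the other lists were higher and 3 lower. Deviations of same-numbered samples correlated at 0.01, 0.00 and -0.07, and not every sample correlated best with its own number, so the numbers were not taken to pair the samples. Signals below 29.1 cannot be told from background, which leaves Slc7a11 without a comparison and limits Slc7a3 and Cth, whose signals were close to it.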
